A study of Mus musculus with 8 samples.

Results

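Bile acid synthesis and its feedback by the nuclear receptor FXR were followed through 10 genes, chosen by symbol among the 25078 genes of the deposited count table. They are 6 enzymes of bile acid synthesis (Cyp7a1, Cyp8b1, Cyp27a1, Hsd3b7, Akr1d1 and Baat) and 4 genes of the feedback (Nr1h4, Nr0b2, Fgfr4 and Klb). All 10 were found and passed the filter on low counts. RNA was sequenced from the livers of 8 male C57/BL6 mice that had eaten, over 25 weeks, a Western-style diet rich in fat, fructose and cholesterol, used to bring on fatty liver. Of these, 3 livers carry the genotype label Midn hemizygotes and the title Het, here called het-labelled, and 5 are labelled wild type. The knockout is global, most homozygotes died as embryos according to the series' design text, and neither the age of the mice nor the deleted part of Midn is given in the sources used here.

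Hepatocytes turn cholesterol into bile acids by a classical route, opened by Cyp7a1, and by an alternative route, in which Cyp27a1 and Cyp7b1 act early. Bile acids bind FXR, the product of Nr1h4, which raises SHP, the product of Nr0b2. SHP has no DNA-binding domain and represses Cyp7a1 and Cyp8b1 through other nuclear receptors such as LRH-1. In a second arm, intestinal FGF15 reaches the liver and signals through the receptor FGFR4 and its coreceptor beta-Klotho, the product of Klb, to lower Cyp7a1. Bile acids also carry dietary fat and cholesterol into the gut wall, and cholic acid, the product of Cyp8b1, favours that uptake.

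The 2 genes with the widest difference between genotypes were Cyp8b1 and Nr0b2, which is why 250 bases upstream of their annotated starts are shown, from RefSeq on GRCm38.p6, 5′ to 3′ on the strand of the gene. Capitals mark TCAAGG, a form of the core of the LRH-1 motif. The Nr0b2 stretch lies at chr4:133553126-133553375 on the plus strand, and that of Cyp8b1 at chr9:121916306-121916555 on the minus strand.
Nr0b2: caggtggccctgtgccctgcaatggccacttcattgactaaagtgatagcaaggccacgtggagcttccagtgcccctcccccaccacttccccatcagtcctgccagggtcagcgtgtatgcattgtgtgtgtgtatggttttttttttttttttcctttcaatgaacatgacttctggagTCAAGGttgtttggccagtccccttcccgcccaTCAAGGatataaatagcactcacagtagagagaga
Cyp8b1: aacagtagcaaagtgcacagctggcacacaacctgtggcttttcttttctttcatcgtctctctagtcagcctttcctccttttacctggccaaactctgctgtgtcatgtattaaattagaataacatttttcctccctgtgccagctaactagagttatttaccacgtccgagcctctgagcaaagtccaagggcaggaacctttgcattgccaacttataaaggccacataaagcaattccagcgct

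TCAAGG, searched on both strands, stood 2 times in the Nr0b2 stretch, with first bases 68 and 35 bases before the start, and 0 times in that of Cyp8b1. Only these exact letters were counted. The Cyp8b1 stretch holds ccaagg, which differs in the first base and was not searched for. Of 32851 RefSeq promoters of the same length, 12.5% held TCAAGG at least 1 time. The table held promoters of 8 of the 10 genes, and among the other 6 only Akr1d1 held the motif. AGGTCA, the nuclear receptor half-site, was found in Akr1d1 and Nr1h4 and in 14.0% of all promoters. A perfect inverted repeat of that half-site with 1 base between the copies, the motif known for FXR, was in none of the 8 and in 0.00609% of all promoters. The Nr1h4 stretch searched, chr10:89506659-89506908, lies inside the span given for that gene below (89454234 to 89533622), not upstream of it. A match describes letters in this window and is not evidence of binding.

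The libraries held between 17508221 and 24916239 counts each. Midn, which checks the labels, stood at 60.4, 39.1 and 51.7 CPM (counts per 1000000, scaled by TMM) in het-labelled livers 1 to 3, against 68.7, 39.8, 71.5, 41.7 and 29.3 CPM in wild-type livers 1 to 5. The groups overlapped, with a log2 fold change of 0.00 (SE 0.30; edgeR adjusted p = 0.994), so each direction below is that of the libraries labelled heterozygous. Midn stood at −0.54 (SE 0.17) against wild-type livers 1 and 3 and at 0.40 (SE 0.19) against wild-type livers 2, 4 and 5, which is to say on different sides of 0. Rpph1, a structural RNA without a poly(A) tail, had between 2631 and 3761 CPM in het-labelled livers and 2910 and 2391 CPM in wild-type livers 1 and 3, against 8703, 7046 and 11940 CPM in wild-type livers 2, 4 and 5. The labels give no batch. Results are therefore also given against wild-type livers 1 and 3 and against wild-type livers 2, 4 and 5, comparisons that share the same het-labelled livers. In tissue RNA, fewer cells of a type and less RNA per cell cannot be told apart.

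Het-labelled livers had more transcript of Cyp8b1, Cyp27a1 and Nr0b2 at an unadjusted p under 0.05, and none of the 10 genes passed after adjustment over all genes. Cyp7a1, the entry enzyme, was the single member with an estimate below 0 in the reported fit, at −0.31 (SE 0.36). That estimate was 0.25 (SE 0.33) against wild-type livers 1 and 3, and in DESeq2 Baat was below 0 as well. edgeR's quasi-likelihood test called 0 of 14438 genes at an adjusted p under 0.05 (0.0%), with 1487 higher and 784 lower by the unadjusted p, so no member could be called by that rule. DESeq2 called 166 genes and limma-voom 0. By the unadjusted p, 3 of the 10 genes were in the higher set, with 10.3% of all genes tested, and 0 in the lower set, with 5.43%. DESeq2 gave the same count of 3 higher, against 6.96% of its genes, and called 0 of the 10 after adjustment, against 1.10% of its genes. The median log2 fold change of the 10 was 0.36 and that of all genes 0.00, and 9 of the 10 estimates were above 0. In 0 of the 10 did every het-labelled liver lie above every wild-type liver, a pattern seen in 7.54% of all genes, and in 0 of the 10 did every one lie below, as in 2.32% of all genes. Against wild-type livers 1 and 3, 4 of the 10 had a higher level by the unadjusted p, with 16.7% of all genes, and 0 a lower one, with 14.9%, and 0 passed after adjustment, with 0.143%. Those 4 were Hsd3b7, Akr1d1, Baat and Nr1h4, and none of Cyp8b1, Cyp27a1 and Nr0b2 was among them. Against wild-type livers 2, 4 and 5 the count was 3 higher (Cyp27a1, Nr0b2 and Fgfr4), with 18.8% of all genes, and 1 lower (Cyp7a1), with 18.7%. Scaling by library size without TMM turned the split of all genes, to 427 higher and 1198 lower by the unadjusted p instead of 1487 and 784, and put the median of all genes at −0.18. Under that scaling Cyp8b1, Cyp27a1 and Nr0b2 were still the 3 members higher, at 1.54, 0.48 and 0.98. The count of 3 depended on 1 library, since without het-labelled liver 3 only Cyp27a1 was left, a count of 1. In that refit 631 of 14703 genes tested were higher by the unadjusted p, instead of 1487 of 14438.

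**Figure D1:**
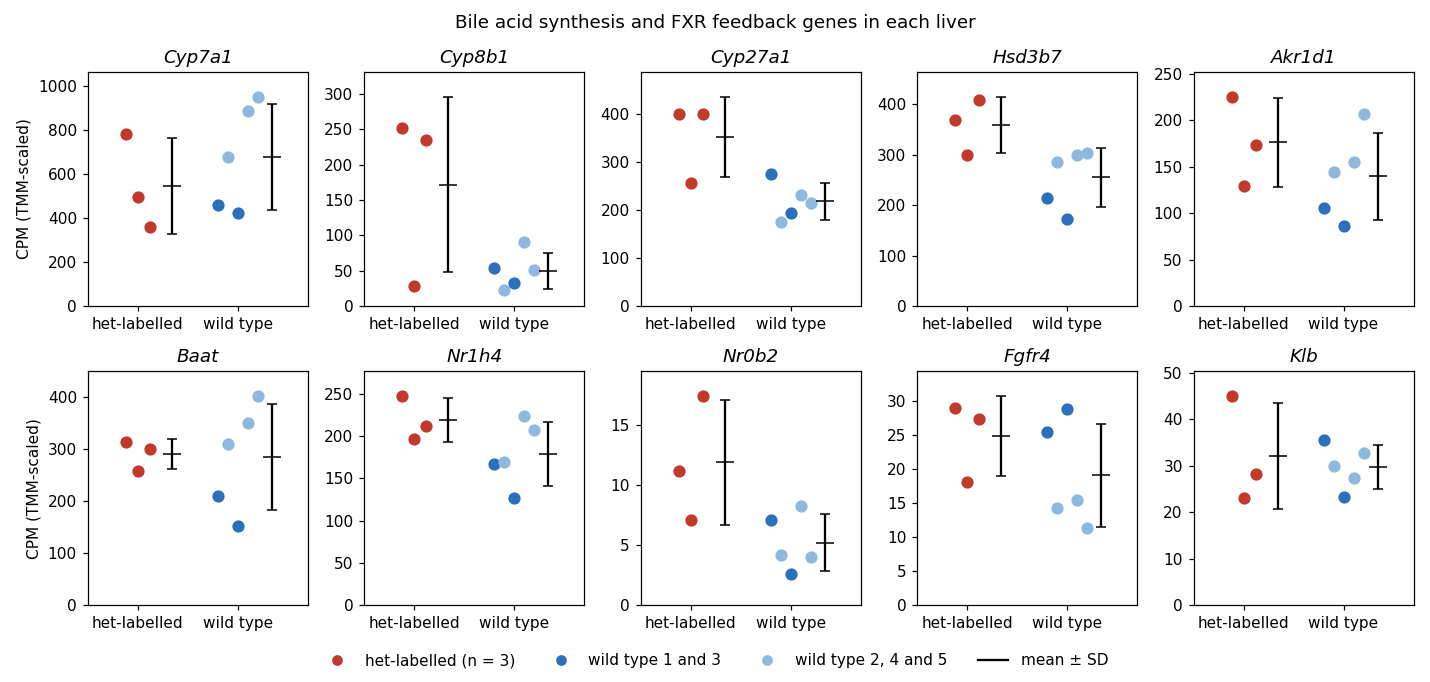
CPM of each of the 10 genes (vertical axes from 0, CPM scaled by TMM) in 3 het-labelled and 5 wild-type livers; points are livers and bars the mean ± SD. Het-labelled livers 1 and 3 lie above every wild-type liver for Cyp8b1, Cyp27a1, Hsd3b7 and Nr0b2, and het-labelled liver 2 lies within the wild-type range for each of these.

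Cyp7a1 (chromosome 4, 6265612 to 6275632, minus strand, mm10) encodes cholesterol 7-alpha-hydroxylase, the rate-limiting enzyme of the classical route. It had 782, 496 and 358 CPM in het-labelled livers 1 to 3, against 457, 675, 423, 886 and 949 CPM in wild-type livers 1 to 5. Het-labelled liver 3 was the lowest of all 8 and the other 2 lay inside the wild-type range. The means were 545 ± 216 CPM in het-labelled livers and 678 ± 240.2 CPM in wild-type livers (SD, n = 3 and n = 5), a log2 fold change of −0.31 (SE 0.36, 95% interval −1.12 to 0.49; edgeR adjusted p = 0.641). The wild-type livers themselves parted, with means of 440 CPM in livers 1 and 3 and 837 CPM in livers 2, 4 and 5. The estimate was 0.25 (SE 0.33) against livers 1 and 3 and −0.67 (SE 0.29) against livers 2, 4 and 5, so its direction depended on which wild-type livers were used.

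Cyp8b1 (chromosome 9, 121914356 to 121916305, minus strand) encodes the sterol 12-alpha-hydroxylase that directs synthesis towards cholic acid. It had 252, 28.7 and 234 CPM in het-labelled livers 1 to 3, against 54.0, 22.9, 32.1, 89.95 and 50.6 CPM in wild-type livers 1 to 5. Het-labelled livers 1 and 3 lay far above every wild-type liver and het-labelled liver 2 near the bottom of their range. Over all 8 livers the highest value was 11.0 times the lowest, the widest span of the 10 genes. The log2 fold change was 1.78 (SE 0.63, 95% interval 0.37 to 3.19; edgeR p = 0.0189, adjusted p = 0.268; exact permutation p of the CPM means, two-sided, 0.179, where 0.0357 is the smallest possible). The unadjusted p passed in 12 of 19 other settings and not with limma-voom, with limma on log2 RPKM, against either wild-type subset, or without het-labelled liver 1 or 3, with edgeR adjusted p = 0.819 at a log2 fold change of 1.40 without liver 1 and adjusted p = 0.752 without liver 3. The log2 fold change was 1.92 (SE 0.86) against wild-type livers 1 and 3 and 1.60 (SE 0.78) against livers 2, 4 and 5.

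Cyp27a1 (chromosome 1, 74713535 to 74737897, plus strand), the mitochondrial sterol 27-hydroxylase that oxidises the side chain, had 400.4, 256 and 399.5 CPM in het-labelled livers 1 to 3. Wild-type livers 1 to 5 had 275, 176, 194, 231 and 214 CPM. Only wild-type liver 1 exceeded the lowest het-labelled value. The log2 fold change was 0.69 (SE 0.21, 95% interval 0.21 to 1.17; edgeR p = 0.00977, adjusted p = 0.259; exact permutation p = 0.0714). Against wild-type livers 2, 4 and 5 it was 0.72 (SE 0.20; edgeR adjusted p = 0.0452), a comparison in which 18.9% of all genes were called, and against livers 1 and 3 it was 0.52 (SE 0.26; edgeR adjusted p = 0.217).

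Hsd3b7 (chromosome 7, 127800609 to 127803802, plus strand), which oxidises the 3-beta-hydroxyl group of the sterol ring, had 368, 299.5 and 409 CPM in het-labelled livers 1 to 3, against 214, 286, 172, 299.3 and 303 CPM in wild-type livers 1 to 5. Het-labelled liver 2 lay just under the highest wild-type liver and the other 2 above it. The log2 fold change was 0.49 (SE 0.23, 95% interval −0.02 to 1.00; edgeR p = 0.0561, adjusted p = 0.324; exact permutation p = 0.0714). Wild-type livers 1 and 3 were the lowest of the 8, and the estimate was 0.83 (SE 0.19) against them and 0.23 (SE 0.15) against wild-type livers 2, 4 and 5.

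Akr1d1 (chromosome 6, 37530173 to 37568815, plus strand), the 5-beta-reductase that bends the sterol ring, had 225, 129.5 and 174 CPM in het-labelled livers 1 to 3 and between 86.4 and 207 CPM in wild-type livers, with a median of 144 CPM. Baat (chromosome 4, 49489418 to 49506558, minus strand), which joins finished bile acids to taurine or glycine, had 314, 257.5 and 301 CPM in het-labelled livers and between 152 and 402 CPM in wild-type livers, with a median of 310.0 CPM. The genotypes overlapped for both genes. The log2 fold change of Akr1d1 was 0.33 (SE 0.29; edgeR adjusted p = 0.558) and that of Baat 0.03 (SE 0.30; edgeR adjusted p = 0.963). Baat spread more among wild-type livers, with a coefficient of variation of 35.9%, than among het-labelled livers, with 10.2%, a difference not tested. For both genes wild-type livers 1 and 3 were the lowest of the 8. The Baat estimate was 0.62 (SE 0.19) against those livers and −0.33 (SE 0.16) against wild-type livers 2, 4 and 5, and that of Akr1d1 was 0.81 (SE 0.24) and 0.01 (SE 0.22).

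Nr0b2 (chromosome 4, 133553376 to 133556686, plus strand), the gene of the repressor SHP, whose promoter is printed above, was the least abundant member. It was counted 242, 132 and 365 times in het-labelled livers 1 to 3, against 159, 81, 69, 150 and 67 times in wild-type livers 1 to 5. Scaled, this was 11.2, 7.10 and 17.4 CPM in het-labelled livers, against 7.06, 4.17, 2.58, 8.24 and 4.03 CPM in wild-type livers. Only wild-type liver 4 exceeded the lowest het-labelled value. The log2 fold change was 1.19 (SE 0.40, 95% interval 0.29 to 2.09; edgeR p = 0.0155, adjusted p = 0.268; exact permutation p = 0.0714). It was 1.24 (SE 0.52) against wild-type livers 1 and 3 and 1.07 (SE 0.39) against livers 2, 4 and 5. Without het-labelled liver 3, the highest, it was 0.81 (edgeR adjusted p = 0.752) and the unadjusted p no longer passed.

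Nr1h4 (chromosome 10, 89454234 to 89533622, minus strand), the gene of FXR itself, had 247, 196 and 212 CPM in het-labelled livers 1 to 3, against 167, 169.8, 127, 223 and 207 CPM in wild-type livers 1 to 5. The groups overlapped, with a log2 fold change of 0.29 (SE 0.20, 95% interval −0.17 to 0.75; edgeR adjusted p = 0.476). Of the receptor pair for FGF15, Fgfr4 (chromosome 13, 55152818 to 55168759, plus strand) had 28.9, 18.0 and 27.4 CPM in het-labelled livers, against 25.4, 14.2, 28.7, 15.5 and 11.4 CPM in wild-type livers. Its coreceptor gene Klb (chromosome 5, 65348411 to 65384003, plus strand) had 44.9, 23.0 and 28.3 CPM in het-labelled livers, against 35.5, 30.0, 23.4, 27.4 and 32.7 CPM in wild-type livers. Neither parted the genotypes, at 0.38 (SE 0.32; edgeR adjusted p = 0.542) for Fgfr4 and 0.11 (SE 0.23; edgeR adjusted p = 0.812) for Klb. Fgfr4 was high in wild-type livers 1 and 3, the opposite of Cyp7a1 and Baat. It stood at −0.19 (SE 0.20) against those livers and at 0.80 (SE 0.20; edgeR adjusted p = 0.0360) against wild-type livers 2, 4 and 5.

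**Figure D2:**
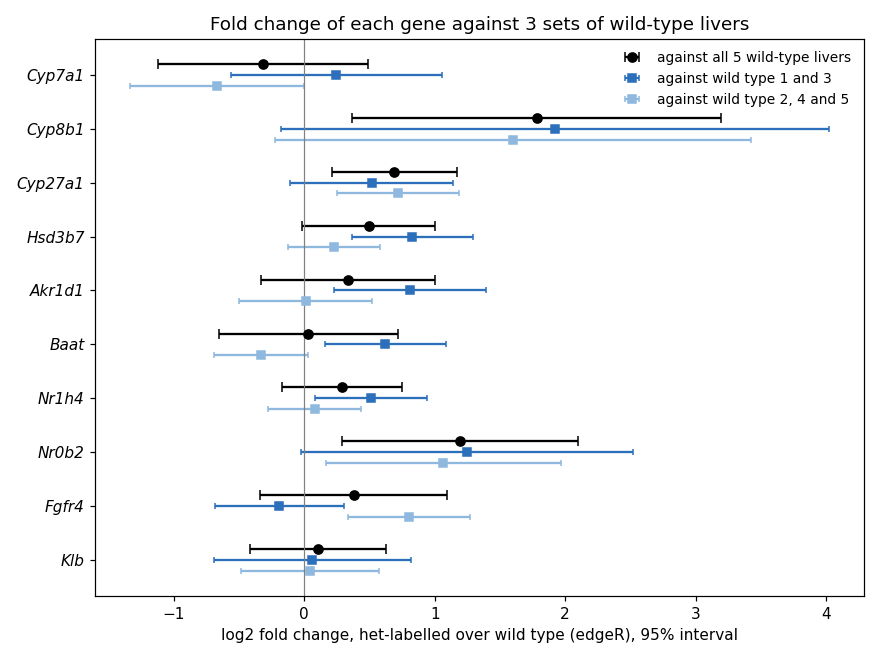
Log2 fold change of het-labelled over wild-type livers with its 95% interval from edgeR (horizontal axis), for each gene (rows) against all 5 wild-type livers, wild-type livers 1 and 3, and wild-type livers 2, 4 and 5. Cyp7a1, Baat and Fgfr4 lie on different sides of 0 in the last 2 comparisons and the other 7 genes above 0 in all 3, with intervals of Cyp8b1, Cyp27a1 and Nr0b2 that reach −0.18, −0.11 and −0.03 against wild-type livers 1 and 3.

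Set side by side per length, in the authors' RPKM, the enzymes were abundant and the feedback genes other than Nr1h4 were rare. Mean levels over the 8 livers were 156 RPKM for Hsd3b7, 146 for Cyp7a1, 143 for Baat and 135 for Cyp27a1. The order of these 4 was not fixed from liver to liver, since Hsd3b7 exceeded Cyp7a1 in 4 of 8 livers, Cyp7a1 exceeded Baat in 6 and Baat exceeded Cyp27a1 in 3. Below them came Nr1h4 at 80.3 RPKM, exceeded by Cyp27a1 in 8 of 8 livers, then Akr1d1 at 55.1, exceeded by Nr1h4 in 8 of 8. Cyp8b1 followed at 47.3 RPKM, below Akr1d1 in 6 of 8 livers and above Klb in 8 of 8. Klb (8.66 RPKM), Fgfr4 (6.57) and Nr0b2 (5.83) closed the order, each above the next in 6 of 8 livers.

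Taking the livers one at a time, het-labelled liver 1 was above the median of the 8 livers for 10 of the 10 genes, het-labelled liver 2 for 3 and het-labelled liver 3 for 7. Wild-type livers 1 to 5 were above it for 4, 3, 1, 6 and 6 genes. The TMM factors behind these CPM were 0.871, 1.06 and 0.852 in het-labelled livers 1 to 3. In wild-type livers 1 to 5 they were 1.14, 1.03, 1.27, 0.955 and 0.889. A lower factor gives a higher CPM for every gene of that liver. The part of this scaling in the counts above was not tested.

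Links of the feedback loop were examined as relations between log2 CPM values over the 8 livers, 5 in all, with exact permutation p-values. Nr0b2 and Cyp8b1 were high in the same livers, with Pearson's r = 0.82 (two-sided exact permutation p = 0.0124, adjusted over the 5 relations 0.0620) and Spearman's rho = 0.71 (exact p = 0.0576, adjusted 0.144). With each genotype's mean subtracted, r was 0.73 (permutation p = 0.0425, adjusted 0.213). That permutation ran across both genotypes without allowing for the subtracted means, so its p is not exact. Without het-labelled liver 3 and wild-type liver 3, the 2 farthest from the median of Nr0b2, r was 0.76 (exact permutation p = 0.0639). Without het-labelled livers 1 and 3, the pair with high Cyp8b1, r was 0.52 (exact permutation p = 0.286), so the relation rested largely on those 2 livers. Nr1h4 and Nr0b2 had r = 0.74 (exact permutation p = 0.0368, adjusted 0.0920) and rho = 0.76 (exact p = 0.0368, adjusted 0.144), with r = 0.42 (exact permutation p = 0.429) without het-labelled liver 1 and wild-type liver 3.

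Nr0b2 and Cyp7a1, the repressor and its textbook target, had r = −0.17 (exact permutation p = 0.690, adjusted 0.917) and rho = −0.12 (exact p = 0.793, adjusted 0.977). Without het-labelled liver 3 and wild-type liver 3, r was −0.13. Het-labelled liver 3 had the most Nr0b2 and the least Cyp7a1, and without it r was 0.30. Cyp7a1 and Cyp8b1 had r = 0.02 (exact permutation p = 0.969, adjusted 0.969) and rho = 0.02 (exact p = 0.977, adjusted 0.977), with r = 0.59 without het-labelled liver 3 and wild-type liver 5. Fgfr4 and Klb had r = 0.15 (exact permutation p = 0.734, adjusted 0.917) and rho = 0.10 (exact p = 0.840, adjusted 0.977), with r = 0.42 without wild-type livers 2 and 5. None of the 5 relations passed after adjustment.

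**Figure D3:**
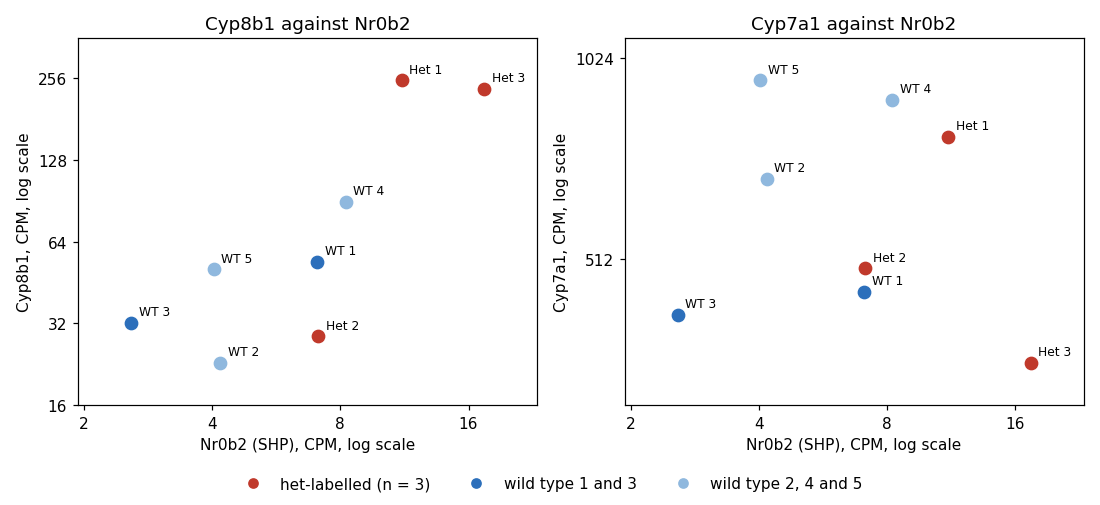
CPM of Cyp8b1 (left) and Cyp7a1 (right) against CPM of Nr0b2 in each of the 8 livers, all axes on a log scale and colours marking het-labelled livers, wild-type livers 1 and 3 and wild-type livers 2, 4 and 5. Cyp8b1 and Nr0b2 are both highest in het-labelled livers 1 and 3 (r = 0.82), while Cyp7a1 shows no such order (r = −0.17).

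The genes most like Cyp7a1 over the 8 livers, among 10480 compared by Pearson's r of log2 CPM, were Limd2 (r = 0.96), the interleukin gene Il1b (0.91), Zfp830 (0.90), D6Wsu163e (0.90) and Ccnt1 (0.89). Those most like Nr0b2 were the folate carrier gene Slc19a1 (0.98), Lrig1 (0.98), the mitochondrial ribosomal protein gene Mrpl10 (0.98), Aven (0.97) and Chd1l (0.97). With 8 livers and that many genes, values of this size are a description of the libraries. None of the other members was among either group of 5.

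Among other enzymes of the route, Cyp7b1 had the smallest p. Of 16 tested of 17 listed, 8 had a higher level by the unadjusted p, with 10.3% of all genes, and 0 a lower one, with 5.43%. Their median log2 fold change was 0.50, and 0 passed after adjustment in edgeR. Against wild-type livers 1 and 3 the list had 7 higher and 1 lower of 16, with 16.7% and 14.9% of all genes. Against wild-type livers 2, 4 and 5 it had 2 higher and 1 lower, with 18.8% and 18.7% of all genes. The 8 were Cyp7b1, Cyp46a1, Cyp2a12, Amacr, Acox2, Hsd17b4, Abcd3 and Slc27a2, of which the last 5 act in peroxisomes on side chains of bile acid precursors or fatty acids, or activate or import them. Cyp7b1, the oxysterol 7-alpha-hydroxylase of the alternative route and a gene known for higher expression in male than in female mouse liver, had 175, 72.9 and 110.2 CPM in het-labelled livers 1 to 3. Wild-type livers 1 to 5 had 59.9, 46.5, 28.7, 48.8 and 51.5 CPM. Every het-labelled liver was above every wild-type one, with a log2 fold change of 1.34 (SE 0.30; edgeR adjusted p = 0.259; DESeq2 adjusted p = 0.0149). That separation was seen in 1 of the 16 genes and in 7.54% of all genes. Amacr, the racemase of the side chain, differed by 0.43 (SE 0.17; edgeR adjusted p = 0.280), and Cyp46a1, a cholesterol 24-hydroxylase best known from brain, by 1.16 (SE 0.44; edgeR adjusted p = 0.279) at means of 4.38 CPM in het-labelled livers and 1.97 CPM in wild-type livers. Scaled by library size, Amacr and Cyp46a1 no longer passed the unadjusted p, at 0.24 and 0.92 (edgeR adjusted p = 0.486 and 0.440). Cyp7b1 still passed it, at 1.14.

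Among 14 regulators of these genes, 7 had a higher level by the unadjusted p, with 10.3% of all genes, and 0 a lower one, with 5.43%, with a median of 0.38 and 0 past adjustment in edgeR. Rxra, the partner of FXR in its DNA-bound dimer, had 556, 376 and 509 CPM in het-labelled livers 1 to 3, against 377, 198, 329, 337 and 242 CPM in wild-type livers, so that wild-type liver 1 overlapped het-labelled liver 2 (0.70, SE 0.24; edgeR adjusted p = 0.268). Nr5a2, the gene of LRH-1, had 78.1, 58.7 and 68.6 CPM in het-labelled livers 1 to 3, against 57.6, 43.5, 55.2, 52.6 and 48.5 CPM in wild-type livers 1 to 5 (0.41, SE 0.15; edgeR adjusted p = 0.268). Ncor1, a corepressor of nuclear receptors, differed by 0.52 (SE 0.19; edgeR adjusted p = 0.268). For Nr5a2 and Ncor1 all 3 het-labelled livers lay above the 5 wild-type livers. This was seen in 3 of the 14 regulators and in 7.54% of all genes. The remaining 4 were Hnf4a, Prox1, Mafg and Nr1i2. Against wild-type livers 1 and 3, 2 of the 14 were in the higher set and 3 in the lower, with 16.7% and 14.9% of all genes, and against wild-type livers 2, 4 and 5, 8 were in the higher set and 1 in the lower, with 18.8% and 18.7%. Scaled by library size, Rxra, Ncor1 and Nr5a2 no longer passed the unadjusted p, at log2 fold changes of 0.47, 0.30 and 0.20 (edgeR adjusted p = 0.483, 0.567 and 0.639).

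Of 11 FXR targets and bile acid transporters tested, 2 were in the higher set by the unadjusted p, with 10.3% of all genes, and 1 in the lower, with 5.43%, and the median was 0.03. Against wild-type livers 1 and 3 the counts were 2 and 1, with 16.7% and 14.9% of all genes. Against wild-type livers 2, 4 and 5 they were 3 and 1, with 18.8% and 18.7%. Abcb11, the bile salt export pump and a direct FXR target, averaged 458 CPM in het-labelled livers and 448 CPM in wild-type livers (0.03; edgeR adjusted p = 0.932). Slc10a1, the transporter NTCP that takes bile acids up from blood, had 468, 196 and 322 CPM in het-labelled livers 1 to 3, against 146, 117, 72.5, 156.5 and 171.5 CPM in wild-type livers 1 to 5, with no overlap (1.31, SE 0.33; edgeR adjusted p = 0.259; DESeq2 adjusted p = 0.0368). Abcc4, which exports bile acids back to blood, had 7.61, 9.36 and 7.53 CPM in het-labelled livers, against 24.3, 15.5, 22.5, 11.5 and 11.0 CPM in wild-type livers, again with no overlap (−1.06, SE 0.30; edgeR adjusted p = 0.259; DESeq2 adjusted p = 0.0491). Abcb4, the phospholipid flippase of the bile canaliculus, differed by 0.48 (SE 0.18; edgeR adjusted p = 0.273), with 486 CPM in the lowest het-labelled liver and 461 CPM in the highest wild-type liver. Slc51a had 0 counts in the 8 livers, and Slc51b averaged 0.916 CPM in het-labelled livers and 1.32 CPM in wild-type livers.

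Of the genes of the FGF and bile acid receptor signal, 0 of 5 tested passed the unadjusted p, with 10.3% of all genes higher and 5.43% lower. Fgf15, an intestinal hormone in mice, had 0 counts in all 8 livers, and Gpbar1, a membrane receptor for bile acids, averaged 0.0179 CPM in het-labelled livers and 0.0632 CPM in wild-type livers. Of the kinase pathway genes with the smallest p, Ptpn11 differed by 0.31 (SE 0.15; edgeR adjusted p = 0.328), Grb2 by 0.26 (SE 0.14; edgeR adjusted p = 0.387) and Mapk8, the gene of the kinase JNK1, by −0.18 (SE 0.19; edgeR adjusted p = 0.616). The groups did not overlap for Ptpn11, with between 98.0 and 99.8 CPM in het-labelled livers and between 67.7 and 93.0 CPM in wild-type livers. Such a separation upward was seen in 1 of these 5 genes and in 7.54% of all genes.

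**Figure D4:**
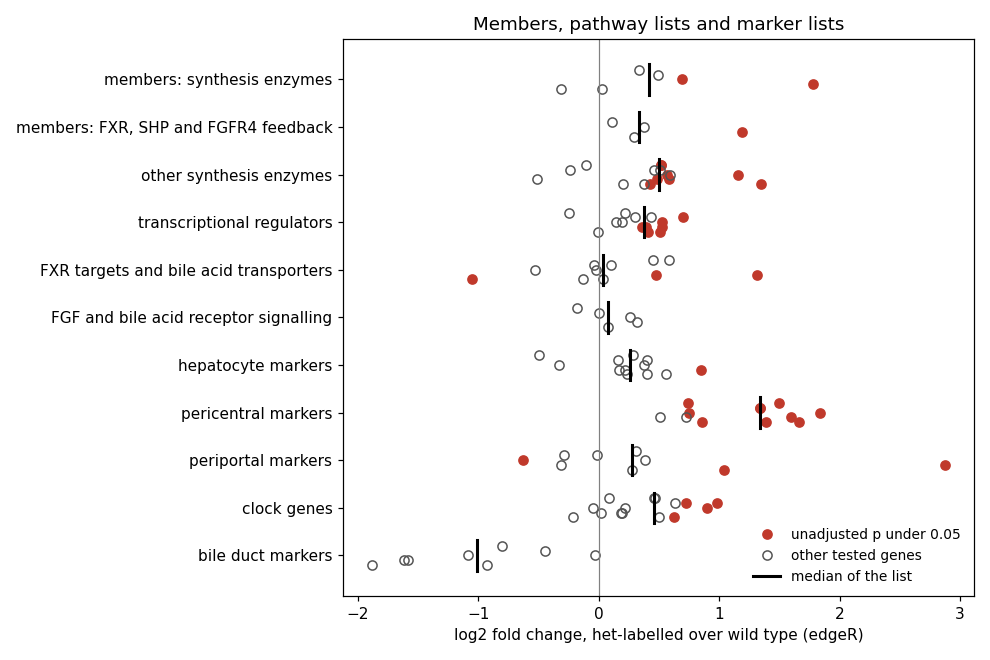
Log2 fold change of het-labelled over wild-type livers (horizontal axis, edgeR) for each tested gene of the member, pathway and marker lists (rows); filled points have an unadjusted p under 0.05 and black bars are list medians. Medians are 0.50 for the other synthesis enzymes and 0.03 for FXR targets and transporters, against 1.34 for pericentral and −1.01 for bile duct markers.

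Marker genes of liver cells and zones were compared between the genotypes in the same livers. By the unadjusted p, 10.3% of all genes were higher and 5.43% lower, and these shares stand beside each count that follows. Of 12 markers of pericentral hepatocytes, 10 had a higher level by the unadjusted p. Their summed level lay between 9265 and 13910 CPM in het-labelled livers and between 3258 and 6110 CPM in wild-type livers. Hepatocyte markers had 1 of 12 higher and a median of 0.26, with sums between 63510 and 100300 CPM in het-labelled livers and between 55450 and 73160 CPM in wild-type livers. Het-labelled liver 2, low in Cyp8b1, had the lowest hepatocyte sum of its group and a bile duct marker sum of 769 CPM, against 167 and 178 CPM in het-labelled livers 1 and 3 and between 421 and 938 CPM in wild-type livers. Bile duct markers had 0 of 8 tested past an unadjusted p under 0.05 (median −1.01), macrophage markers 0 of 13 (−0.50), T and NK cell markers 2 of 10 lower (−0.85) and stellate markers 1 of 10 higher (−0.46). The summed ranges overlapped between the genotypes for these 4 lists. Endothelial markers had 2 of 8 higher (0.35) and periportal markers 2 higher and 1 lower of 9 (0.27), and their sums also overlapped. Clock genes, whose products time Cyp7a1 over the day, had 4 of 15 higher (0.46), with sums between 919.9 and 1143 CPM in het-labelled livers and between 837.5 and 918 CPM in wild-type livers. No gene of these marker lists was at 0 in all 8 livers. Their part in the values of the bile acid genes was not tested.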

How the data were processed

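The authors deposited raw counts per gene and RPKM values for 8 libraries of mouse liver RNA, with total exon lengths. The submitters' processing notes name mm10, STAR, HTSeq and bcl2fastq (2.18.0.12); the annotation, the counting mode and whether strand was used are not stated there. No other gene of the deposited table overlapped any of the 10 genes. Deposited sample columns left unused numbered 0. Replicates were numbered in accession order, and nothing in the labels pairs livers or names batches. Replicate pairs differed by at least 22.9 chi-square per degree of freedom, so each library counted as 1; nothing says how the samples arose beyond separate titles, and a p-value reflects only the spread among them.

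Genes were kept with filterByExpr (minimum count 10, minimum total 15), which left 14438, scaled by TMM and tested with edgeR's robust quasi-likelihood test, two-sided, with Benjamini-Hochberg adjustment over all genes at 0.05. CPM are counts per 1000000 of the TMM-scaled library total. SE is the log2 fold change divided by the root of its F. Relations used log2 CPM (prior count 2). Exact permutation tests ran over 56 assignments. The 10 genes, the other lists and the tests were chosen with earlier results of these data known. Some genes of the pathway lists are not reported here and were left out of the lists' counts. Named besides the 10 are Midn, Rpph1, up to 3 genes with the smallest p of each of 4 pathway lists, and the 5 genes most like Cyp7a1 and Nr0b2 (mean of at least 5 CPM); Abcb11, Slc51a, Slc51b, Fgf15, Gpbar1 and the genes listed to fill out a count were added after values were seen. Other settings tried were DESeq2 and limma-voom in place of edgeR; limma on log2 RPKM (mean RPKM of 0.1 or more) with pseudocounts of 0.1 and 1; RLE or plain library-size scaling; an unfiltered table or a mean CPM of 1 or more; non-robust dispersion; each liver left out; and both wild-type subsets. The procedure was tested on simulated data. Versions were DESeq2 1.42.0, edgeR 4.0.16 and limma 3.58.1 under R 4.3.3, with scipy 1.17.1 and matplotlib 3.10.9 under Python 3.11.15.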

Additional observations from a re-analysis of the deposited data

How the results depend on the processing

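Cyp8b1, Cyp27a1, Nr0b2, Hsd3b7, Akr1d1 and Nr1h4 kept a positive estimate under all 19 alternatives run for them, with ranges of 1.35 to 2.29, 0.48 to 0.88, 0.81 to 1.46, 0.23 to 0.83, 0.01 to 0.81 and 0.08 to 0.51. The count of genes called over the whole table was 0 in the reported fit, 166 in DESeq2, 21 against wild-type livers 1 and 3 and 2632 against livers 2, 4 and 5, and 0 with each liver left out. Against wild-type livers 2, 4 and 5, 2 of the 10 genes passed after adjustment (Cyp27a1 and Fgfr4), with 18.9% of all genes, and 1 was lower at an unadjusted p under 0.05 (Cyp7a1). The count of members higher at an unadjusted p ran from 1 (without het-labelled liver 3) to 4 with each liver left out. Over the same refits, that of all genes ran from 573 to 1969. With library size alone, 1 member, Hsd3b7, had an exact permutation p under 0.05, against 0 with TMM. Higher and lower genes at an unadjusted p numbered 1487 and 784 in the reported fit and 1333 and 1373 in DESeq2.

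Other estimates changed sign. Midn was −0.0409 with RLE scaling, −0.26 with library size alone, −0.032 in DESeq2, −0.0145 with a mean of at least 1 CPM, −0.54 against wild-type livers 1 and 3, and −0.14 to 0.17 with each liver left out. Baat was −0.0224 with RLE scaling, −0.11 with library size alone, −0.0153 in DESeq2 and −0.33 against wild-type livers 2, 4 and 5, and −0.17 to 0.19 with each liver left out. Klb was −0.10 with library size alone, and Klb ran from −0.21 to 0.30 with each liver left out. Against wild-type livers 1 and 3, Cyp7a1 was 0.25, Fgfr4 −0.19 and Mapk8 0.12. The r of Nr0b2 with Cyp7a1 was −0.55 with library size alone (exact permutation p = 0.157), against −0.17 with TMM. It was 0.076 with genotype means subtracted, 0.18 without het-labelled livers 1 and 3, and −0.54 to 0.30 with each liver left out. That of Cyp7a1 with Cyp8b1 was −0.33 with library size alone, −0.0073 on log2(RPKM + 1) and −0.22 to 0.48 with each liver left out. That of Fgfr4 with Klb was −0.28 without het-labelled livers 1 and 3 and −0.25 to 0.40 with each liver left out. With each liver left out, the r of Nr0b2 with Cyp8b1 ran from 0.72 to 0.90 (adjusted p = 0.0387 without het-labelled liver 2 and 0.0496 without wild-type liver 5, by exact permutation), and that of Nr1h4 with Nr0b2 from 0.52 to 0.85 (0.0496 without wild-type liver 5). Without het-labelled livers 1 and 3 these were 0.52 and 0.71. With library size alone they were 0.76 and 0.55 (exact permutation p = 0.0347 and 0.161). The cause of these changes was not tested.

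No paired analysis was possible because the replicate numbers follow accession order and pair no livers. The exact permutation counts were not rerun with a liver left out, since such designs cannot reach 0.05. The 10 genes have between 67 and 16956 counts per library, so counting error is largest for Nr0b2.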

Other observations

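The balance of 2 hydroxylases of the route, Cyp8b1 over Cyp7a1, was taken within each liver from the authors' RPKM, where no scaling between libraries enters. This ratio and those below were chosen with the data known. It was 0.689, 0.124 and 1.40 in het-labelled livers 1 to 3, against 0.253, 0.0725, 0.163, 0.217 and 0.114 in wild-type livers 1 to 5. Het-labelled livers 1 and 3 were above every wild-type liver and het-labelled liver 2 was inside their range, and het-labelled liver 3 was the single liver with more Cyp8b1 than Cyp7a1 per length. On the log2 scale the means were −1.02 ± 1.80 in het-labelled livers and −2.74 ± 0.73 in wild-type livers (SD, n = 3 and n = 5), a difference of 1.72 (two-sided exact permutation p = 0.143, with 0.0357 the smallest possible). The difference was 1.28 against wild-type livers 1 and 3, 2.02 against wild-type livers 2, 4 and 5, and 0.97 to 2.72 with each liver left out. The lowest of these, 0.97, came without het-labelled liver 3, and the highest without het-labelled liver 2.

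The ratio of Cyp27a1 to Cyp7a1, the side-chain oxidase over the entry enzyme of the classical route, was 1.10, 1.11 and 2.41 in het-labelled livers 1 to 3, against 1.30, 0.560, 0.991, 0.561 and 0.487 in wild-type livers 1 to 5. The groups overlapped through wild-type liver 1 (exact permutation p = 0.143), and the log2 difference was 0.34 against wild-type livers 1 and 3 and 1.42 against wild-type livers 2, 4 and 5. The ratio of Fgfr4 to Klb was 0.703, 0.858 and 1.06 in het-labelled livers, and ran between 0.381 and 1.34 in wild-type livers, which enclosed them (exact permutation p = 0.429). Its log2 difference was −0.25 against wild-type livers 1 and 3 and 0.80 against wild-type livers 2, 4 and 5.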
